A study of Mus musculus with 8 samples.

Results

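The salt-inducible kinase (SIK) genes *Sik1*, *Sik2* and *Sik3* were examined in whole mouse kidney together with genes of the LKB1 system they belong to. The set held 10 genes of the 55401 listed for each kidney. These were the 3 SIK genes, *Stk11* (which encodes LKB1), its partners *Strada* and *Cab39*, the AMPK catalytic subunits *Prkaa1* and *Prkaa2*, and the MARK kinases *Mark2* and *Mark3*. They were taken by gene identifier, matched without the version number to the mouse annotation GENCODE M21, and all 10 passed the filter on low counts.

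RNA-Seq was performed on 8 kidneys. The 4 control kidneys carried loxP-flanked (floxed) alleles of all 3 SIK genes on both chromosomes, as labelled, without a Cre recombinase. The 4 SIK mutant kidneys are labelled with the same floxed alleles plus Six2-Cre. The study's text describes mutants that kept a wild-type *Sik1* allele, since no surviving mice with Six2-Cre and all SIK alleles floxed were obtained. Labels and text thus differ on *Sik1*, and the group is called SIK mutant here. Six2-Cre is active in nephron progenitors and the cells they give rise to. Stromal and blood cells of the kidney, which are part of each sample, lack it. The labels give no age, sex, litter or batch. The study states that Cre-negative littermates served as controls, but nothing in the labels says how many litters the mice came from. The p-values below set the difference between groups against the spread among these kidneys only.

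LKB1 is a master kinase that works in a complex with the pseudokinase STRAD and the scaffold protein MO25. It phosphorylates the activation loop of AMPK and of a family of AMPK-related kinases, among them the SIKs and the MARKs, and most of these kinases need that phosphate to be active. The SIKs phosphorylate CRTC coactivators and class IIa histone deacetylases, which 14-3-3 proteins then hold in the cytoplasm. When PTH raises cAMP in a renal tubule cell, protein kinase A phosphorylates the SIKs, which reduces their action on these targets.

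SIK mRNA was measured in the study with an RT-qPCR primer pair for each gene, whereas the counts used here add up reads over all exons and all transcripts of a gene. For its mutants the study reported partial deletion in whole kidney. In sorted cells marked by a Cre reporter it reported nearly complete loss of *Sik2* and *Sik3*. The stretch that each primer pair reads is printed below from the GENCODE M21 transcripts (GRCm38, the same build as mm10), to show how small a part of each mRNA it covers. Capitals mark the primer sites, the last one being the reverse complement of the reverse primer. All 3 stretches are coding sequence.
Sik1: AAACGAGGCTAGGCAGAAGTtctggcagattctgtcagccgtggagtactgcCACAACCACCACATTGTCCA
Sik2: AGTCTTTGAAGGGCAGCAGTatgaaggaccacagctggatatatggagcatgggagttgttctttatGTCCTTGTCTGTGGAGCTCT
Sik3: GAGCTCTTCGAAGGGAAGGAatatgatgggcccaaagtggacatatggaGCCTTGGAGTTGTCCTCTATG
The *Sik1* stretch of 72 bases lies in exon 5 of 14 of transcript Sik1-201 (chr17:31851294-31851365, minus strand), and 3 of the 4 annotated *Sik1* transcripts hold it. For *Sik2*, 87 bases join exons 5 and 6 of 15 of transcript Sik2-206 (chr9:50917528-50917573 and chr9:50917097-50917137, minus strand) and occur in 4 of 8 transcripts. For *Sik3*, 70 bases join exons 5 and 6 of 25 of transcript Sik3-204 (chr9:46177949-46177996 and chr9:46178432-46178453, plus strand) and occur in 5 of 7 transcripts. The *Sik2* and *Sik3* stretches came from corresponding places: in their best ungapped alignment 51 of 68 bases were identical, against 28 of 72 for *Sik1* with *Sik2* and 21 of 58 for *Sik1* with *Sik3*. Over the longest coding transcripts of the 3 genes, the longest run of bases shared by a pair was 19, for *Sik2* and *Sik3*. A gene-level count does not separate transcripts that keep the floxed exons from transcripts that have lost them, and which exons are floxed is not given in the sources used here.

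The 8 libraries held 10179648 to 10925100 expected counts each. *Sik2*, the scarcest of the 10 genes, had 51 to 113 counts per kidney and thus the largest counting error. The other 9 genes had at least 165. Genes of the nephron epithelium were abundant in all kidneys, with 9 of 9 markers tested and a summed level of 13463, 13605, 11059 and 11973 CPM (each library's counts brought to the same total, with TMM factors) in controls and 10926 to 11945 CPM in mutants. *Six2*, whose regulatory sequence drives Cre, had 0 counts in 7 kidneys and 2 in SIK mutant 2. Control 3 and control 4 had 0 and 2 reads from 4 Y-linked genes, whereas the other 6 kidneys had 789 to 1064. *Xist*, a transcript of female cells, was at 260.5 and 297.8 CPM in control 3 and control 4 and at most 0.494 CPM in the other 6. By these genes control 3 and control 4 were female and the other 6 kidneys male, though the labels give no sex. The comparison over 8 kidneys thus sets male mutants against controls of both sexes. Results are given for all 8 kidneys and for those 6, which are called Y-positive (2 controls, 4 mutants).

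Relative levels of different genes were compared in TPM, which divides by gene length. *Stk11* had the highest level in every control, at 47.8, 53.9, 52.1 and 54.9 TPM. *Cab39* (24.8 ± 3.17 TPM; SD, n = 4), *Mark3* (23.6 ± 2.35 TPM; SD, n = 4) and *Mark2* (22.4 ± 2.03 TPM; SD, n = 4) came next, and the ranges of neighbours in this order overlapped. *Sik3* (14.1 ± 1.28 TPM; SD, n = 4) and *Prkaa2* (14.1 ± 1.52 TPM; SD, n = 4) formed the next level, again overlapping. Below them lay *Sik1*, with a mean of 9.91 TPM and a range of 8.14 to 11.03, and *Strada* at 9.55 ± 0.575 TPM (SD, n = 4), which overlapped each other. *Prkaa1* at 6.41 ± 1.12 TPM and *Sik2* at 2.49 ± 0.241 TPM (SD, n = 4 each) came last. The SIKs thus occupied 3 separate levels in control kidney, with *Sik3* above *Sik1* and *Sik1* above *Sik2* in all 4 controls. In mutants *Sik3* moved from the fifth to the 8th place, and the first and last genes of the order, *Stk11* and *Sik2*, were the same.

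**Figure D1:**
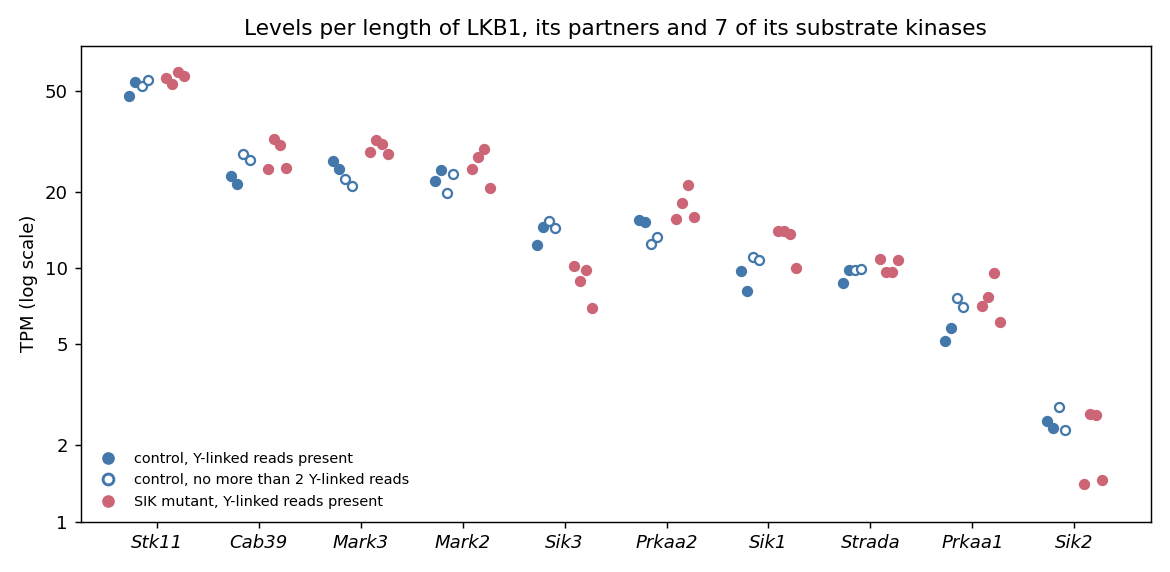
TPM (log axis) of the 10 genes in each kidney, ordered by their mean in controls; blue points are controls, red points SIK mutants, and open points the 2 controls with no more than 2 Y-linked reads. *Stk11* lay highest and *Sik2* lowest in both groups, and *Sik3* is the gene whose 4 mutant points sit below all 4 control points.

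*Sik3* was the member with the largest difference between genotypes. Its level was 58.6, 66.5, 65.7 and 61.0 CPM in the 4 controls and 41.4, 39.7, 43.1 and 33.7 CPM in the 4 mutants. Every mutant thus lay below every control, and mutant 4 was the lowest. The log2 fold change was −0.67 (SE 0.0937), a level in mutants of 0.627 times that in controls (95% interval 0.542 to 0.726). The FDR of the edgeR quasi-likelihood test over 14326 genes was 0.0697, short of the threshold of 0.05, while that of DESeq2 was 1.15e-05. Over the 6 Y-positive kidneys it was −0.65 on the log2 scale (SE 0.120; edgeR FDR 0.106).

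*Sik1* lay higher in mutants. Its level was 41.1, 36.8, 43.1 and 42.3 CPM in controls and 54.1, 52.3, 52.5 and 43.4 CPM in mutants. Mutants 1 to 3 stood clear of the controls, but mutant 4 was only just above control 3. The log2 fold change was 0.31 (SE 0.0942), which is 1.24 times the control level (95% interval 1.07 to 1.43), with an edgeR FDR of 0.601, so the gene did not pass the test over all genes. Over the 6 Y-positive kidneys it was 0.39 (SE 0.119; edgeR FDR 0.314). On the TPM scale the groups overlapped, because mutant 4 had 9.97 TPM and control 3 and control 4 had 11.03 and 10.72 TPM.

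*Sik2* varied most among the mutants. Controls had 9.44, 9.19, 9.95 and 7.97 CPM and mutants 4.50, 7.31, 9.30 and 5.77 CPM. The SD of the mutants was 2.07 CPM against 0.841 CPM in controls (n = 4 each), and mutant 3 lay inside the control range while the other 3 mutants lay below it. The log2 fold change was −0.44 (SE 0.212; edgeR FDR 0.794), and its 95% interval of 0.529 to 1.02 times the control level held everything from a loss larger than that of *Sik3* to no difference. It ranged from −0.64 without mutant 3 to −0.29 without mutant 1. On the TPM scale mutant 1 and mutant 4, the lowest in CPM too, had 1.41 and 1.46 TPM, while mutant 2 joined mutant 3 inside the control range of 2.29 to 2.82 TPM, at 2.65 and 2.64 TPM. *Sik2* overlaps *Ppp2r1b*, a gene on the opposite strand with up to 301 counts, and whether strand was used in counting is not given in the sources used here. The deposited posterior SD of the *Sik2* count was nonetheless 0 in all kidneys, so RSEM shared none of its reads with another gene.

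**Figure D2:**
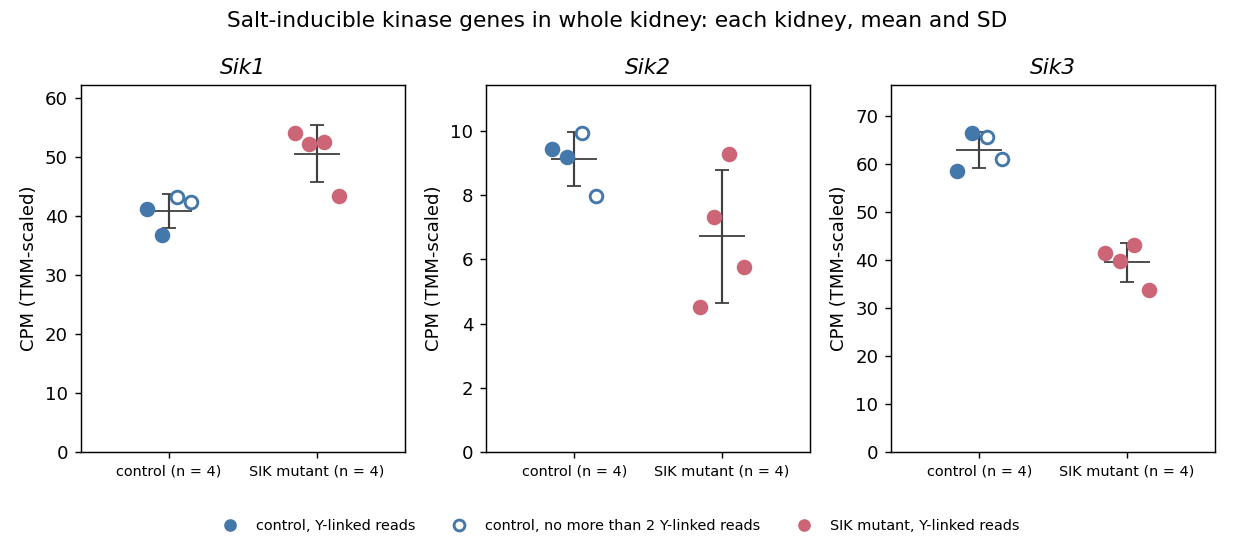
CPM of *Sik1*, *Sik2* and *Sik3* in each kidney (points) with the group mean and SD (bars); axes start at 0 and differ between panels, and open points are the 2 controls with no more than 2 Y-linked reads. The groups did not overlap for *Sik3* (58.6 to 66.5 against 33.7 to 43.1 CPM) and for *Sik1* (36.8 to 43.1 against 43.4 to 54.1 CPM), and they overlapped for *Sik2*.

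These differences went together with another balance among the 3 kinases. *Sik3* exceeded *Sik1* in every control, with *Sik1* to *Sik3* TPM ratios of 0.792, 0.563, 0.720 and 0.749. In every mutant *Sik1* exceeded *Sik3*, with ratios of 1.37, 1.58, 1.39 and 1.44. *Sik1* made up 32.7% to 39.7% of the summed SIK TPM in controls and 52.2% to 54.9% in mutants, whereas the *Sik3* share was 50.1% to 58.0% in controls and 34.7% to 39.9% in mutants. The *Sik2* share was 8.38% to 10.2% in controls and 5.50% to 10.4% in mutants, so it overlapped. The sum of *Sik2* and *Sik3* was 14.8 to 18.1 TPM in controls and 8.41 to 12.5 TPM in mutants. With *Sik1* added, the sums overlapped, at 24.5, 24.9, 29.2 and 27.3 TPM in controls and 25.6, 25.5, 26.1 and 18.4 TPM in mutants, mutant 4 being the only mutant under all controls. In CPM the summed SIK level did not overlap, at 109.1 to 118.8 in controls and 82.8 to 104.9 in mutants. CPM is scaled with TMM factors and not divided by length. The scales also differed over all tested genes. TPM was shifted towards the mutants by a median of 0.11 on the log2 scale, while the median edgeR log2 fold change was −0.0038. The part of length and of scaling in the summed SIK levels was not tested. These sums and shares contain the 3 genes already compared and are given without a test. In whole kidney, fewer cells that express a gene and less RNA per cell cannot be told apart.

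**Figure D3:**
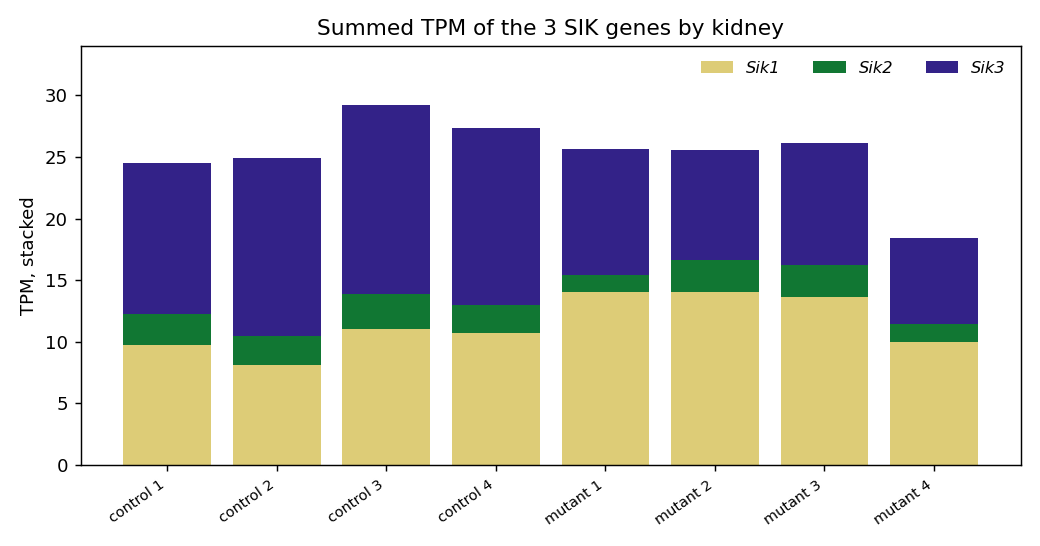
Stacked TPM of *Sik1*, *Sik2* and *Sik3* in each of the 8 kidneys (bars start at 0). *Sik3* is the largest block in all 4 controls and *Sik1* in all 4 mutants. The total of mutants 1 to 3 (25.5 to 26.1 TPM) lies within the control range of 24.5 to 29.2 TPM. In CPM, not shown here, the total of every mutant lay below that of every control.

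Summed marker genes of cell types overlapped between the groups over all kidneys. No marker passed the FDR threshold of the edgeR test. The adipocyte marker *Fabp4* had the lowest unadjusted edgeR p among them, at 0.0225. Summed adipocyte markers, of which 6 of 7 were tested and all 6 had a positive log2 fold change, were at 22.3, 29.9, 219.4 and 67.1 CPM in controls and 165.6 to 261.9 CPM in mutants, so the overlap came from control 3. *Plin1*, *Cidec*, *Adipoq* and *Cfd* were each at 0 in 1 kidney, and *Fabp4* was at 0 in none. Markers of collecting duct, endothelium, stroma and blood, of which 7 of 7 were tested and none was at 0, summed to 863.2, 710.7, 1003 and 891.9 CPM in controls and 895.9 to 1411 CPM in mutants. Of these 7, 4 had a positive log2 fold change: *Hbb-bs* (0.87), *Aqp2* (0.62), *Ptprc* (0.25) and *Pdgfrb* (0.04). *Pecam1* (−0.003), *Kdr* (−0.03) and *Hsd11b2* (−0.17) were below 0. Of the 9 nephron markers, 4 had a positive log2 fold change, and *Slc34a1* alone reached 6850 CPM. Among the 6 Y-positive kidneys, both controls lay above all 4 mutants in the nephron sum and below all 4 in the sums of the other lists. The part of these differences in the values of the SIKs and of the other genes was not tested.

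The LKB1 complex itself differed little. *Stk11* had 78.8, 83.3, 77.6 and 78.9 CPM in controls and 72.6, 73.7, 82.3 and 86.1 CPM in mutants, so that mutants lay on both sides of the controls. Its level in mutants was 0.988 times that in controls (95% interval 0.871 to 1.12; edgeR FDR 0.986). *Strada*, which encodes the pseudokinase that activates LKB1, was at 17.8, 19.0, 16.6 and 16.7 CPM in controls and 17.8, 14.8, 16.0 and 20.3 CPM in mutants, 0.985 times (95% interval 0.821 to 1.18; edgeR FDR 0.987). It lies on the same strand as part of *Ccdc47*, and its posterior SD reached 0.640 counts, the only one of the 10 genes above 0. *Cab39*, which encodes the MO25 scaffold, was at 90.2, 80.1, 92.3 and 87.6 CPM in controls and 79.1, 100.3, 96.9 and 89.5 CPM in mutants, 1.04 times (95% interval 0.902 to 1.21; edgeR FDR 0.944). For all 3, changes of more than about 1.2-fold in whole kidney lay outside the interval from all kidneys, with upper bounds of 1.12, 1.18 and 1.21. Over the 6 Y-positive kidneys the log2 fold changes were −0.03 (SE 0.102) for *Stk11*, −0.08 (SE 0.148) for *Strada* and 0.11 (SE 0.115) for *Cab39*. The SEs over all kidneys were smaller, at 0.0809, 0.117 and 0.0942, so the limit of about 1.2-fold holds for that fit only. The ratio of *Stk11* to *Strada* TPM was 5.33 to 5.56 in controls and 5.18 to 6.13 in mutants, and that of *Cab39* to *Strada* 2.18 to 2.88 and 2.26 to 3.35. The second STRAD and MO25 genes, *Stradb* and *Cab39l*, had log2 fold changes of −0.12 (SE 0.119) and 0.12 (SE 0.110), with edgeR FDR values of 0.909 and 0.908, and −0.25 and 0.10 over the 6 Y-positive kidneys. Of the 5 genes of the LKB1 complex that were tested, 2 had a positive and 3 a negative log2 fold change.

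The AMPK catalytic subunits overlapped between genotypes in CPM. *Prkaa1*, the α1 subunit, was at 24.9, 26.9, 30.6 and 28.6 CPM in controls and 28.4, 29.5, 37.6 and 27.2 CPM in mutants (log2 fold change 0.15, SE 0.119; edgeR FDR 0.893). *Prkaa2*, the α2 subunit, was at 131.7, 123.8, 87.5 and 93.7 CPM in controls and 108.3, 122.2, 146.6 and 125.0 CPM in mutants. The low values were those of control 3 and control 4, the kidneys outside the Y-positive ones. The log2 fold change of *Prkaa2* was 0.20 (SE 0.151; edgeR FDR 0.878) over 8 kidneys and −0.02 (SE 0.123; edgeR FDR 0.972) over the 6 Y-positive kidneys. The balance of α2 to α1 followed the same kidneys: the TPM ratio was 3.01 and 2.62 in control 1 and control 2, 1.63 and 1.87 in control 3 and control 4, and 2.18, 2.36, 2.22 and 2.60 in mutants.

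Among the other AMPK subunits, *Prkag3*, a regulatory γ subunit, was the 1 gene whose groups did not overlap in CPM, with mutants below controls as for 2.39% of tested genes. Its level was low, at 2.84, 2.77, 2.03 and 2.01 CPM in controls and 1.50, 1.34, 1.45 and 1.83 CPM in mutants. The log2 fold change was −0.65 (SE 0.231; edgeR FDR 0.713) and −0.86 over the 6 Y-positive kidneys. The remaining subunits *Prkab1*, *Prkab2*, *Prkag1* and *Prkag2* had log2 fold changes of −0.06 to 0.07. In TPM *Prkag1* did not overlap either, at 31.2 to 36.4 in controls and 36.9 to 41.5 in mutants, a position that 4.59% of tested genes held in TPM. Over all 7 subunits, 4 log2 fold changes were positive and 3 negative, with a median of 0.01.

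The MARK kinases, which regulate microtubules and cell polarity, gave a similar picture. *Mark2* had 76.6, 73.1, 61.0 and 66.3 CPM in controls and 64.0, 62.2, 77.3 and 70.6 CPM in mutants, 0.989 times (95% interval 0.844 to 1.16; edgeR FDR 0.989). *Mark3* had 88.4, 79.7, 62.3 and 57.1 CPM in controls and 78.5, 82.9, 84.4 and 86.1 CPM in mutants. As with *Prkaa2*, control 3 and control 4 were the low kidneys, whereas control 1 lay above all mutants and control 2 among them. The log2 fold change of *Mark3* was 0.21 (SE 0.135; edgeR FDR 0.848) over 8 kidneys and −0.01 (SE 0.0893; edgeR FDR 0.979) over the 6. In TPM all 4 mutants exceeded all 4 controls for *Mark3* (28.1 to 31.9 against 21.0 to 26.3 TPM) and for *Prkaa2* (15.53 to 21.16 against 12.38 to 15.48 TPM). TPM placed 4.59% of all tested genes in that position and only 0.517% in the opposite one. *Sik3* was found in the latter, and so was the scarce *Prkag3* (0.84 to 1.01 TPM in controls, 0.64 to 0.69 in mutants). TPM of all genes was shifted by a median of 0.11 on the log2 scale towards the mutants, whereas the median edgeR log2 fold change was −0.0038. *Mark1* and *Mark4*, the other MARK genes, had log2 fold changes of 0.46 (SE 0.403; edgeR FDR 0.899) and −0.03 (SE 0.0971; edgeR FDR 0.978), and *Mark1* was scarce, at 0.692 to 2.30 CPM. Its log2 fold change ran from 0.20 without mutant 1 to 0.80 without control 4 and was 1.05 over the 6 Y-positive kidneys.

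Over the 10 genes, 0 passed an edgeR FDR of 0.05, as did 0% of the 14326 genes tested. At an unadjusted edgeR p under 0.05 there were 2, *Sik1* and *Sik3*, where 6.36% of all tested genes reached that level. DESeq2 called 1, *Sik3*, against 0.386% of the 18372 genes with an adjusted p. In CPM the 4 mutants lay above the 4 controls for *Sik1* alone, a position held by 1.65% of tested genes, and below them for *Sik3* alone, a position held by 2.39%. Both had a two-sided exact permutation p of 0.0286, the smallest that 4 against 4 allows, and the other 8 genes had 0.0857 to 0.886. The median log2 fold change of the 10 genes was 0.02, with 5 above and 5 below 0, and with 3 above and 7 below 0 over the 6 Y-positive kidneys. Over the 6 Y-positive kidneys, 0 of the 10 passed an edgeR FDR of 0.05 (0.143% of 14719 genes did), and *Sik1* and *Sik3* again had an unadjusted p under 0.05, against 11.1% of genes. None of the 7 genes other than the SIKs passed an FDR of 0.05 in any of 21 alternative analyses.

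**Figure D4:**
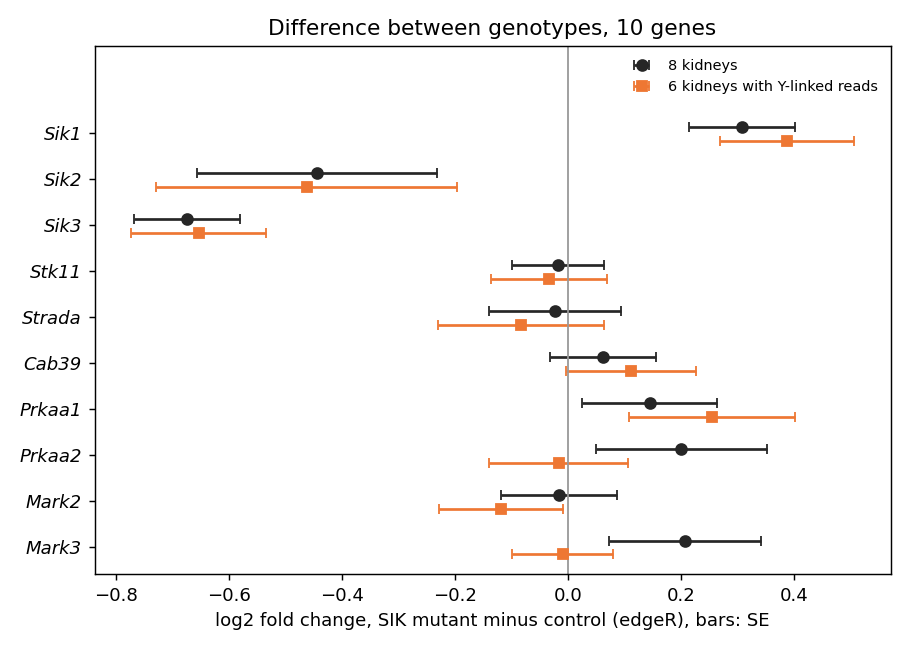
Log2 fold change between genotypes (mutant minus control, edgeR) of the 10 genes, with standard errors, over all 8 kidneys (circles) and over the 6 Y-positive kidneys (squares). *Sik3* lies at −0.67 and −0.65 and *Sik1* at 0.31 and 0.39, while *Prkaa2* and *Mark3* lie at about 0.2 over 8 kidneys and close to 0 over 6.

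Further kinases of the family and the proteins around them were counted from fixed lists. Of 6 other AMPK-related kinases, 4 passed the filter, 2 with positive and 2 with negative log2 fold changes. *Nuak2* had the largest, at −0.65 (SE 0.258; edgeR FDR 0.751), with 54.4, 79.0, 77.0 and 123.9 CPM in controls and 55.0, 71.0, 50.7 and 36.3 CPM in mutants. The groups overlapped, and mutant 4 and control 4 were the extremes. The value was −0.40 without control 4 and −0.32 over the 6 Y-positive kidneys. *Nuak1* had 0.23 (SE 0.199; edgeR FDR 0.897), and 0.49 over those 6. *Melk* and *Brsk2* did not pass the filter, with at most 2.56 and 0.198 CPM. The 3 kinases that can phosphorylate AMPK in place of LKB1 were tested, and *Camkk2* (0.23, SE 0.177; edgeR FDR 0.880) and *Map3k7*, which encodes TAK1 (0.20, SE 0.0904; edgeR FDR 0.784), had the largest log2 fold changes. The *Camkk2* value rested on mutant 3: it had 30.0 CPM there and 16.6 to 19.8 CPM in the other 7 kidneys, and its log2 fold change was 0.01 without that kidney. *Camkk1*, named after its values were seen and at no more than 1.67 CPM, had −0.02 over 8 kidneys and 1.33 over the 6 Y-positive ones (edgeR FDR 0.362).

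The 14-3-3 genes, whose products bind phosphorylated SIK targets and the SIKs themselves, numbered 7, of which 6 had a positive log2 fold change over 8 kidneys, as did 49.2% of all tested genes, and 4 over the 6 Y-positive kidneys. None passed an edgeR FDR of 0.05. *Ywhag*, at 67.2, 60.6, 62.2 and 62.8 CPM in controls and 65.6, 71.9, 85.0 and 70.3 CPM in mutants, had 0.21 (SE 0.0927; edgeR FDR 0.775). *Ywhaz* had 0.18 (SE 0.152; edgeR FDR 0.897) over 8 kidneys and −0.02 over the 6 Y-positive kidneys, control 3 being low at 226.3 CPM. The median over the 7 genes was 0.08, and over all tested genes −0.0038.

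Effective length was then examined, since it moves with the estimated mix of short and long annotated transcripts of a gene. It also moves with fragment length, so a shift alone does not show a change of transcripts. RSEM reports it as the abundance-weighted mean transcript length, less an allowance for fragment size. Of the 10 genes, 9 have more than 1 annotated transcript and were fitted, *Prkaa2* having 1. None of the 9 passed a limma FDR of 0.05, as did 0% of 12394 genes with several transcripts. None reached an unadjusted limma p under 0.05, against 5.43% of those genes, and for none did the groups keep apart, against 3.04%.

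The closest was *Sik3*, at 4335, 4381, 4705 and 4659 bases in controls and 4512, 5149, 4923 and 4787 bases in mutants. Mutants 2 to 4 were longer than every control and mutant 1 lay within them, and the log2 shift was 0.10 (SE 0.0474; limma FDR 0.889). *Sik2* spread widely among the mutants, with 3553, 3171, 3953 and 3914 bases against 3441 to 3865 in controls, and a log2 shift of −0.03 (SE 0.0781). The short value of mutant 2 goes with its *Sik2* TPM lying in the control range while its CPM lay below it. *Sik1* had 4286 to 4317 bases in 7 kidneys and 3843 in control 1, so its log2 shift of 0.04 (SE 0.0387) came from that kidney and was 0.0002 without it. *Mark2*, with 21 annotated transcripts the most of the set, spanned 2618 to 3391 bases, a range of 25.4% of its mean, and *Stk11* spanned 12.6%. *Cab39*, *Prkaa1*, *Mark3* and *Strada* spanned 0.721% to 4.98%. Fragment length, estimated from genes with 1 transcript, was 211.7 to 218.8 bases in controls and 204.1 to 218.2 in mutants, which is small beside the spread of *Sik2*, *Sik3* and *Mark2*.

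**Figure D5:**
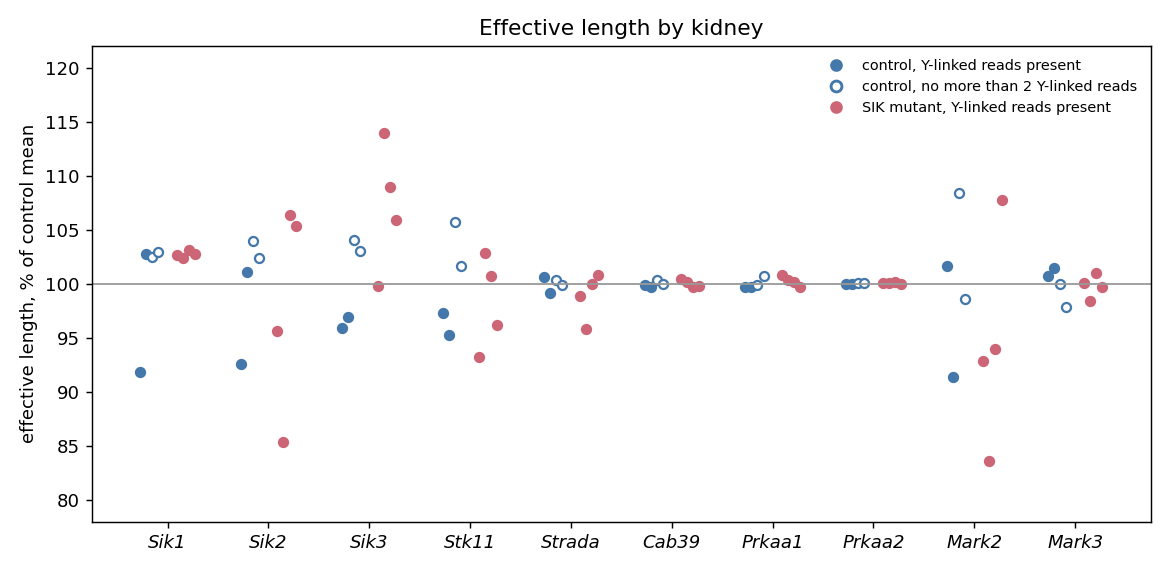
Effective length of each gene in each kidney as a percentage of its control mean; blue points are controls, red points SIK mutants, open points the 2 controls with no more than 2 Y-linked reads. *Sik1* shows 1 short kidney, control 1; *Sik2*, *Sik3* and *Mark2* scatter widely, and the groups overlapped for every gene.

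The genes whose levels followed each SIK most closely over the 8 kidneys were sought among 11068 genes with a mean of at least 5 CPM. For *Sik3* they were *Tinag* (Pearson r = 0.964), *Snx14* (0.959) and *Rnf114* (0.948), with log2 fold changes between genotypes of −0.30, −0.15 and −0.18. *Tinag* encodes a basement membrane protein of the tubule. *Tinag* and *Snx14* lie on chromosome 9, as *Sik3* and *Sik2* do, and *Rnf114* lies on chromosome 2. Whether location on the chromosome of the floxed genes plays a part was not tested. For *Sik1* the closest were *Dis3*, *Zfp41* and *Sec14l1* (r = 0.961, 0.957 and 0.931), and for *Sik2* they included *Dhdh* and *Ccdc32* (r = 0.937 and 0.909). The points share library, depth and genotype, and the highest of 11068 correlations over 8 kidneys is high by selection, so these values are a description only.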

How the data were processed

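Whole-kidney RNA was extracted with Trizol and sequenced on a BGISEQ500 instrument in 4 control and 4 SIK mutant mice. The submitters' processing notes name FastQC, STAR 2.7.2b, RSEM 1.3.0, DESeq2 and the build mm10. The authors deposited RSEM expected counts, unnormalised estimates of the reads from each gene, and TPM, which are scaled to length and library total. RSEM's credibility bounds on TPM, deposited by the authors as a signal range, were not used. Replicates were not pooled. The deposited files also give lengths and posterior SDs.

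Of 55401 genes, 54349 matched GENCODE M21 with their version and 55141 without it. Expected counts were rounded. The main test was the edgeR 4.0.16 quasi-likelihood F test in R 4.3.3 (TMM, filterByExpr, legacy = TRUE), with Benjamini-Hochberg adjustment (FDR) over 14326 genes. Values per kidney are CPM, group values means ± SD. Log2 effective length was fitted with limma 3.58.1 over 12394 genes with 2 or more transcripts. Single genes were also compared by a two-sided exact permutation test over 70 assignments. DESeq2 1.42.0 and the other alternatives are listed in the closing section. Count and length fits of these kinds were also tried on simulated data, but without filterByExpr or legacy = TRUE and with a fixed dispersion. That trial does not give the error rates of the main test.

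The genes and lists were chosen with earlier results of these data known. Named were the 10 genes, any list gene with an FDR under 0.05 and otherwise the 2 with the largest change in each list (for the LKB1 complex *Stradb* and *Cab39l*), and the 3 genes most like each SIK, of which 1 is not reported here. *Prkab1*, *Prkab2*, *Prkag1*, *Prkag2*, *Mark4*, *Melk*, *Brsk2* and *Fabp4* and the other markers were named outside that rule, after their values were seen. Of the marker lists, brown fat, muscle and adrenal genes summed to 1.52 to 87.9 CPM in controls and 10.8 to 49.6 CPM in mutants.

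Depth was 10179648 to 10925100 expected counts per kidney, and 3 counts, taken as the floor, corresponded to 0.263 to 0.304 CPM. Intervals of counts and floors cover counting error only. Replicate pairs within groups differed in their counts by a chi-square of 9.44 to 53.8 per degree of freedom, so none was a duplicate.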

Additional observations from a re-analysis of the deposited data

Results flagged for a closer look

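Of 38 groups of 4 kidneys examined for a single value far from the rest, 2 held one, and chance gives about 1 in 20. The *Sik1* effective length of control 1 was 3843 bases, against 4291 to 4309 in the other 3 controls. The *Prkaa1* effective length of control 4 was 4443 bases, against 4399 to 4406 in the other 3 controls, a gap within the mutants' range of 4400 to 4446 bases. The CPM of *Sik1* and *Prkaa1* in these 2 kidneys did not stand apart.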

How the results depend on the processing

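The count analyses were repeated with RLE and upper-quartile factors, DESeq2, edgeR with legacy off, limma-trend on log2(TPM + 1) and log2(TPM + 0.1), filters from none to 50 counts on average, an effective-length offset, unrounded counts, a replicate block, a Y-linked covariate, the 6 kidneys with Y-linked reads, and each kidney left out. *Sik1* (0.26 to 0.39), *Sik2* (−0.64 to −0.22) and *Sik3* (−0.77 to −0.61) kept their direction in all 21. *Sik3* passed the threshold only with DESeq2, which called 1 of the 10 genes, and its FDR over the 21 ran from 1.15e-05 to 0.380. The cause was not tested. Over all genes the number called was 1 with legacy off, 9 with no filter, 15 with the Y-linked covariate, 21 among the 6 kidneys, 71 with DESeq2, 4 and 5 with limma-trend on log2(TPM + 1) and log2(TPM + 0.1), 0 or 1 with a kidney left out, and 0 otherwise. Replicate numbers in the titles did not pair the kidneys (correlations of deviations −0.16, 0.05, 0.04 and −0.29, 2 of 4 controls correlating best with their own number). With the replicate block 0 of the 10 genes and 0 of all genes were called, 657 had an unadjusted p under 0.05, and the log2 fold change of *Sik3* was −0.68.

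Genes close to 0 changed sign. *Stk11* was at 0.0071 with the effective-length offset, 0.115 and 0.117 with limma-trend, and −0.0638 to 0.0196 with a kidney left out. *Strada* was at 0.0886 and 0.0966 with limma-trend and −0.111 to 0.044 with a kidney left out. *Mark2* was at 0.0617 with the offset, 0.173 and 0.180 with limma-trend, and −0.0784 to 0.0363 with a kidney left out. With the Y-linked covariate *Prkaa2*, *Mark3* and *Ywhaz* were at −0.0329, −0.0225 and −0.0383, and over the 6 kidneys at −0.0157, −0.0087 and −0.0168. The log2 shift of the *Sik2* effective length was 0.0155 over the 6 kidneys and −0.0714 to 0.0345 with a kidney left out, and 0 of the 9 genes were called in any of 13 alternatives for length (deposited length, all genes, centring, block, the 6 kidneys, each kidney left out). Depth limits *Sik2* most, with 51 counts at its lowest.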
